A study of Mus musculus with 8 samples.

Results

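The genes described here are 5 connexins and 1 pannexin of cultured murine keratinocytes (KCs): Gja1, Gjb2, Gjb5, Gjb6, Gjc1 and Panx1. They were taken by gene name from the deposited gene tables and are 6 of the 23 connexin and pannexin genes among the 41457 genes listed. The set was chosen by the read numbers and RPKM values of these same samples at both culture times, which were already known. These values are therefore given for the 6 genes as a description, without a test. All 6 passed the filter on low read numbers, as did 12590 genes in all.

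KCs were isolated from tail skin of adult wild-type C57BL/6 mice (C57BL/6J in the study's text), left untreated and grown in serum-free medium low in calcium, and their poly(A) RNA was sequenced after culture for 1 week (4 samples) or 3 weeks (4 samples). The comparison asks how the transcriptome of primary KCs changes upon prolonged culture. The design text speaks of 4 independent experiments. Each sample had between 13896807 and 20026084 reads on exons, and the authors deposited these read numbers together with RPKM values, that is, read numbers divided by exon length and by sequencing depth. Log2 fold changes, always 3 weeks over 1 week, were computed from the read numbers with edgeR after TMM normalization, and adjusted p-values come from edgeR's quasi-likelihood test, adjusted over all tested genes by the method of Benjamini and Hochberg. Over all tested genes the log2 fold change had a median of 0.03 in this fit. Taken from log2(RPKM + 0.1) instead, the median was -0.16, so that RPKM values by themselves read slightly low at 3 weeks.

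Gap junctions are clusters of channels that join the cytoplasm of neighbouring cells and let ions, second messengers and small metabolites pass. Each cell contributes a hemichannel built from connexin subunits, and connexins of different genes can be mixed in a hemichannel. The epidermis makes several connexins whose pattern changes between its layers and in wound healing, and mutations of human GJB2, GJB6 and GJA1 cause disorders of the skin. Pannexins have the same topology in the membrane but act mainly as channels of single membranes, through which cells release ATP.

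Transcripts of basal KCs were abundant at both times. The summed RPKM of 6 basal markers (Krt5, Krt14, Trp63, Itga6, Itgb4, Col17a1) lay between 12180 and 14439 at 1 week and between 7106 and 8278 at 3 weeks, and Krt5 (adjusted p = 0.00103) and Itga6 (adjusted p = 0.0391) fell in edgeR's test. The 6 suprabasal markers (Krt1, Krt10, Ivl, Lor, Flg, Tgm3) summed to 5.86, 4.25, 21.7 and 28.1 RPKM in replicates 1 to 4 at 1 week and to 4.58, 6.04, 5.22 and 14.05 RPKM at 3 weeks. Of the suprabasal markers 1 (Krt1, with 7 to 106 reads in a sample) fell in edgeR's test (adjusted p = 0.0132). Markers of other cells of the skin were at low levels. The 6 fibroblast markers summed to 2.70 to 4.42 RPKM at 1 week and 2.31 to 4.74 at 3 weeks, and the 6 endothelial markers to at most 0.458 RPKM in any sample. Cd207, the marker of Langerhans cells, had 0 reads in all samples. The 6 smooth muscle markers summed to 15.1 to 23.6 RPKM at 1 week and 18.5 to 57.3 at 3 weeks, with Cnn1, Actg2 and Lmod1 higher in edgeR's test (adjusted p of at most 0.00826) and Des at no more than 11 reads in a sample. Melanocyte markers summed to 3.54 to 21.4 RPKM at 1 week and 1.64 to 5.94 at 3 weeks, with 1 of 6 (Pmel) lower. Immune markers summed to 15.1 to 20.4 and then 7.56 to 13.5 RPKM, with 1 of 6 (Cd68) lower, and Schwann cell markers to 7.46 to 8.01 and then 6.88 to 15.4 RPKM, with 1 of 6 (Ncam1) higher. The part of these markers in the values below was not tested, and in bulk RNA fewer cells of a type and less RNA per cell cannot be told apart.

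The sequences before the start sites of these genes are shown because several of these genes differed between the times. Gjb2 (chromosome 14, 57098600 to 57104702, minus strand, GRCm38) and Gjb6 (chromosome 14, 57123303 to 57133611, minus strand) are next to each other. Gjb5 lies on chromosome 4 (127354809 to 127358181, minus strand). Gja1 (chromosome 10, 56377330 to 56402513, plus strand), Gjc1 (chromosome 11, 102799579 to 102819700, minus strand) and Panx1 (chromosome 9, 15002128 to 15045478, minus strand) stand apart from other members of the family. In the longest coding transcript of the annotation each of the 5 connexins had its whole coding sequence in 1 exon, while that of Panx1 was spread over 5 exons.

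The 250 bases before the RefSeq start site (GRCm38.p6) were available for 5 of the 6 genes and for 13 of the 23 family genes, and that of Gjc1 was not printed. They are given 5′ to 3′ on the strand of the gene, and capitals mark matches, on either strand, to the GC box of Sp factors (GGGCGG), the AP-1 site of Jun and Fos proteins (TGANTCA), the AP-2 site (GCCNNNGGC) or the TATA box (TATAAA).
Gjb2, chr14:57104703-57104952, minus strand: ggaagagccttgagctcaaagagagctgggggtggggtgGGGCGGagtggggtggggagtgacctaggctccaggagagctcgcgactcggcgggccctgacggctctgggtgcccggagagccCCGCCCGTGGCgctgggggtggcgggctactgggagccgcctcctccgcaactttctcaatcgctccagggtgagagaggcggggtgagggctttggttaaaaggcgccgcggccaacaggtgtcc
Gjb6, chr14:57133612-57133861, minus strand: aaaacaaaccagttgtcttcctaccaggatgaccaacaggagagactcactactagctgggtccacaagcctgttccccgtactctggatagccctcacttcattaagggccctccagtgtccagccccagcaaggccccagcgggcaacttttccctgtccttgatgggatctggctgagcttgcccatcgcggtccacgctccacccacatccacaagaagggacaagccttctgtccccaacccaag
Gja1, chr10:56377050-56377299, plus strand: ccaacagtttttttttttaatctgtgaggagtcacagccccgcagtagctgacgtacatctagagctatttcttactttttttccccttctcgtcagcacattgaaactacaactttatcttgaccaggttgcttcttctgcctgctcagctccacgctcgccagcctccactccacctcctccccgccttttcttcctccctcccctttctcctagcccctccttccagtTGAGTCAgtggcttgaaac
Gjb5, chr4:127358165-127358414, minus strand: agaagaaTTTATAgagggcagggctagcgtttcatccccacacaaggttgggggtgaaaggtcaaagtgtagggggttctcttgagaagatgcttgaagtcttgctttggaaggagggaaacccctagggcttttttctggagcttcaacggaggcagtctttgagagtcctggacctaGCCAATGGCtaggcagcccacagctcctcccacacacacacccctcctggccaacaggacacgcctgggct
Panx1, chr9:15045479-15045728, minus strand: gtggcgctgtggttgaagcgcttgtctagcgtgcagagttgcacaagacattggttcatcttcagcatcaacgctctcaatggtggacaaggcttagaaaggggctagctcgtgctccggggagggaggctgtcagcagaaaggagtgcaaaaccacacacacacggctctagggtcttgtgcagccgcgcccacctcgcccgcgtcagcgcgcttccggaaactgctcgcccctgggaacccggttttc

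The promoter of Gjb2 was rich in G and C (69.2%, against a median of 52.4% for all 32851 promoters) and held 2 GC boxes and 1 AP-2 site, of which the second GC box and the AP-2 site overlap. A GC box was found in 32.7% and an AP-2 site in 13.7% of all promoters. In the promoter of the adjacent Gjb6 (56.8% G and C) none of these letters was found, nor in that of Panx1 (59.6%). The promoter of Gja1 (50% G and C) held the AP-1 letters TGAGTCA, starting at position -19 counted from the start site, and 6.75% of all promoters held an AP-1 site. That of Gjb5 (54.4% G and C) held an AP-2 site at -71 and, far from the start site at -243, the TATA letters on the opposite strand, letters that 12.4% of all promoters share. These matches describe the sequence only.

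Upon culture for 3 weeks, mean RPKM was 26.9 times lower for Gjb2, 3.66 times for Gja1 and 1.93 times for Panx1. After TMM normalization in edgeR, these 3 genes were 23.9, 3.30 and 1.71 times lower. Gjb6 RNA was also lower in every sample of 3 weeks than in any of 1 week, and was close to the limit of detection at 3 weeks. Gjb5 and Gjc1 overlapped between the times. Gjb2 encodes a connexin of hyperproliferative and wounded epidermis and of the inner ear. It was read at 27.9, 50.2, 47.8 and 101 RPKM in replicates 1 to 4 at 1 week and at 1.47, 1.11, 2.56 and 3.28 RPKM at 3 weeks. Every sample of 1 week was far above every sample of 3 weeks, and replicate 4 was the highest at both times. Mean levels were 56.6 ± 31.0 (SD, n = 4) and 2.11 ± 0.996 (SD, n = 4) RPKM, a ratio of 26.9, and the log2 fold change was -4.58 (SE 0.50). The samples of 1 week held 1277 to 4267 reads of Gjb2 each and those of 3 weeks 44 to 116, so that the low level rests on few reads. Among all genes ordered by mean RPKM, Gjb2 moved from place 933 to place 8444.

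Gjb6, the partner of Gjb2 in many epithelia and the gene of hidrotic ectodermal dysplasia, was a minor connexin even at 1 week. Its levels were 0.786, 0.908, 2.50 and 5.83 RPKM in replicates 1 to 4 at 1 week, and 0.0602, 0.0910, 0.0911 and 0 RPKM at 3 weeks. Replicates 3 and 4 of 1 week stood above replicates 1 and 2, as they did in the sums of the suprabasal markers and of the melanocyte markers (5.15, 3.54, 16.2 and 21.4 RPKM), whose part was not tested, and no sample of 3 weeks came near the lowest of them. In reads, these were 40, 50, 96 and 275 against 3, 4, 4 and 0, and a level at 3 reads corresponds to 0.0764 RPKM in the sample without a read. Mean levels were 2.51 ± 2.35 (SD, n = 4) and 0.0606 ± 0.0429 RPKM (SD, n = 4). The log2 fold change was -5.11 (SE 0.89), and -4.26 without replicate 4 of 1 week. Summed over the samples of a time, 461 and 11 reads gave 6.64 and 0.172 CPM (reads scaled to library size) and a ratio of 38.7 (95% exact interval 21.4 to 78.1, for counting error only). The size of the change of Gjb6 is therefore known only roughly.

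**Figure D1:**
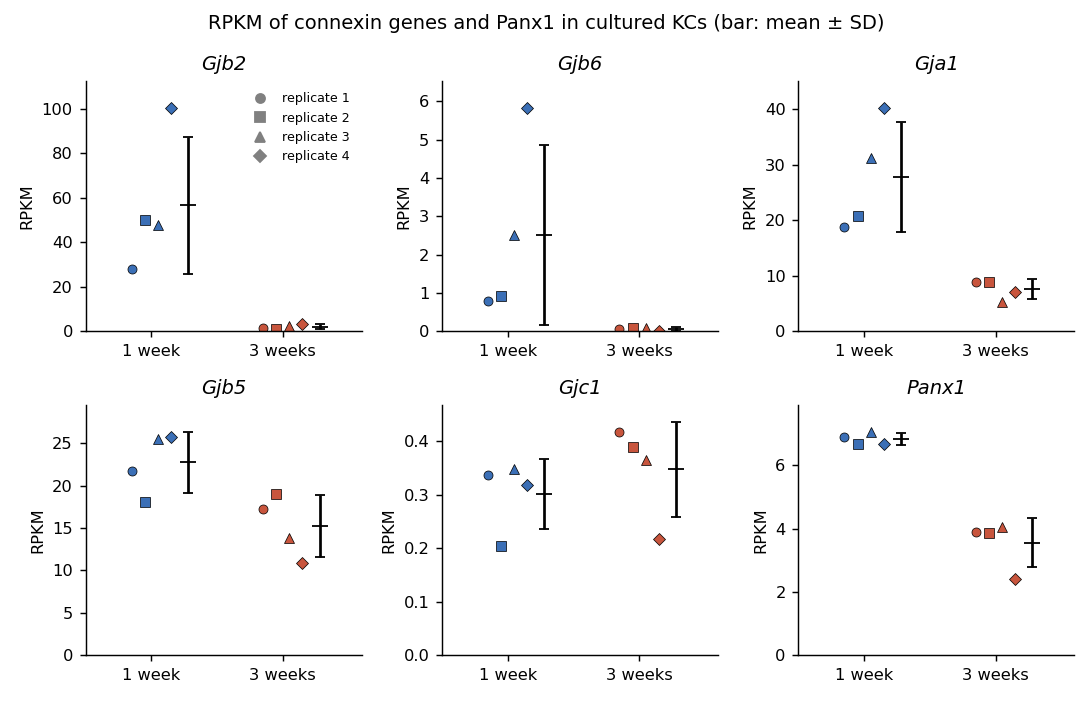
Level of each gene in RPKM (vertical axes, each from 0 and on its own scale) in the 4 samples of 1 week (blue) and of 3 weeks (red), with symbols for the replicate number and bars for mean and SD. Gjb2, Gjb6, Gja1 and Panx1 were lower in every sample of 3 weeks than in any of 1 week, while Gjb5 and Gjc1 overlapped.

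Gja1 encodes the most widespread connexin of the body, which joins basal and spinous KCs and is a target of many kinases. Its levels were 18.8, 20.8, 31.2 and 40.3 RPKM in replicates 1 to 4 at 1 week and 8.93, 8.96, 5.28 and 7.16 RPKM at 3 weeks. The groups did not overlap. Replicates 3 and 4 were again the highest at 1 week, and the samples with these numbers at 3 weeks were the lowest there. Replicate number 3 does not stand for the same KC preparation at both times. Mean levels of 27.8 ± 9.95 and 7.58 ± 1.75 RPKM (SD, n = 4 each) differed by a ratio of 3.66, with a log2 fold change of -1.72 (SE 0.26). With 889 to 7291 reads per sample, counting error was small for Gja1.

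Gjb5 encodes a connexin of stratified epithelia and trophoblast. It was read at 21.8, 18.0, 25.5 and 25.7 RPKM at 1 week and at 17.3, 19.1, 13.8 and 10.8 RPKM at 3 weeks. The groups overlapped, since replicate 2 of 3 weeks exceeded replicate 2 of 1 week. Mean levels were 22.8 ± 3.64 and 15.2 ± 3.66 RPKM (SD, n = 4 each), and the log2 fold change was -0.42 (SE 0.20). Gjc1, best known from the heart and from vascular smooth muscle, was barely transcribed, with 16 to 39 reads per sample. Its levels were 0.336, 0.204, 0.348 and 0.317 RPKM at 1 week and 0.418, 0.389, 0.365 and 0.218 RPKM at 3 weeks. These groups overlapped too, and Gjc1 was the only one of the 6 genes with a positive log2 fold change (0.38, SE 0.31).

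Panx1 encodes the pannexin of most epithelia, a channel through which cells release ATP. Its levels at 1 week were nearly identical at 6.90, 6.67, 7.07 and 6.67 RPKM, and those at 3 weeks were 3.88, 3.86, 4.05 and 2.39 RPKM. All samples of 3 weeks were below all of 1 week, and replicate 4 lay apart from the other samples of 3 weeks. Mean levels were 6.83 ± 0.194 and 3.55 ± 0.773 RPKM (SD, n = 4 each), and the log2 fold change was -0.77 (SE 0.19).

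The 6 genes thus covered a range of log2 fold changes from -5.11 to 0.38, with a median of -1.25. In 4 of the 6 (Gja1, Gjb2, Gjb6, Panx1) the groups did not overlap and 3 weeks was lower, as in 26.2% of all tested genes. The members were chosen with this comparison in view, and nothing is read from this count. Gjb6, with at most 4 reads in a sample of 3 weeks, passed the filter only through the samples of 1 week. The log2 fold change was negative for the same 5 genes and positive for Gjc1 in each of the 16 alternative analyses. All exon reads of the 6 genes mapped to 1 place in the genome, and none of the 6 overlaps a gene on the opposite strand.

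**Figure D2:**
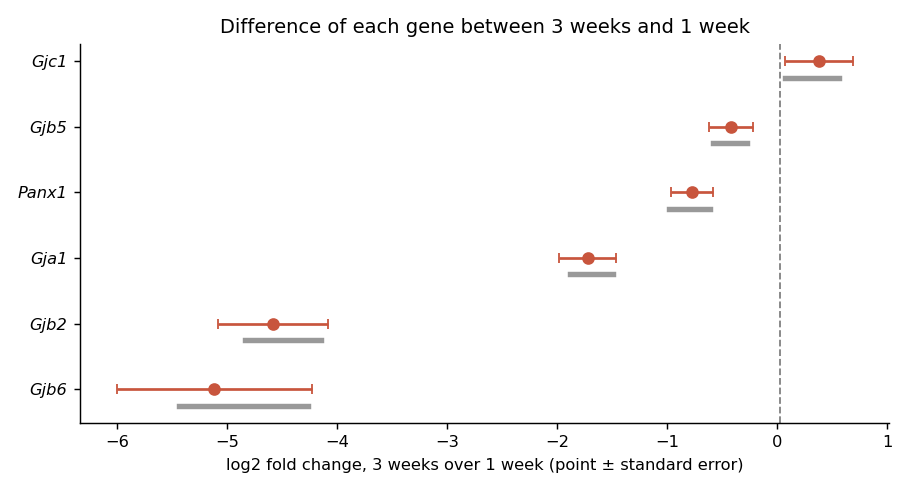
Log2 fold change (3 weeks over 1 week, horizontal axis) of the 6 genes as points with standard errors, with the range over the alternatives based on read numbers as grey bars. The dashed line is the median of all tested genes (0.03). Gjb6 (-5.11) and Gjb2 (-4.58) stand far to the left, and Gjc1 (0.38) alone lies to the right of the line.

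Among further genes of the family, several had few reads and did not pass the filter on low read numbers. Panx2, which encodes a pannexin best known from neurons, had 0, 5, 1 and 1 reads at 1 week and 32, 14, 6 and 20 reads at 3 weeks. These groups did not overlap, with means of 0.0256 ± 0.0291 and 0.298 ± 0.164 RPKM (SD, n = 4 each). Panx2 did not pass the filter in the comparison as reported, and it could pass in other analyses only through its reads at 3 weeks, so that no test of it is given. It overlaps the gene 1810021B22Rik on the opposite strand, and reads of both cannot be told apart if the counting did not use the strand. Gja4 had 37 reads over all samples and Gja6 14, and Gja5 and Gjd3 had 7 each. Gjc3 and Gje1 had 2 reads each, Gjd2 and Gjb1 1 each, and Gja10, Gja3, Gjd4 and Panx3 had 0 reads in every sample.

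Among the 6 genes, the order by mean RPKM at 1 week was Gjb2, Gja1, Gjb5, Panx1, Gjb6 and Gjc1. Gjb2 overlapped with Gja1 and Gja1 with Gjb5, while Panx1, Gjb6 and Gjc1 were each separate from the gene before. At 3 weeks the order was Gjb5, Gja1, Panx1, Gjb2, Gjc1 and Gjb6. Here Panx1 and Gjb2 overlapped, and all other neighbours in the order were separate. By mean level, Gjb2 thus went from the first place among the 6 to the fourth.

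Ratios between members were also taken within each sample. Gjb2 exceeded Gja1 by 1.48 to 2.49 times in the samples of 1 week and was at 0.124 to 0.484 of Gja1 at 3 weeks. Between the adjacent genes Gjb2 and Gjb6 the ratio was 17.2 to 55.3 at 1 week and 12.2 to 28.1 in the 3 samples of 3 weeks with Gjb6 reads. The ranges of the Gjb2 to Gjb6 ratio overlapped between the times, those of Gjb2 to Gja1 did not. At 3 weeks the Gjb2 to Gjb6 ratio rests on 3, 4 and 4 reads of Gjb6 and leaves out replicate 4, which had 0. This overlap therefore does not show whether Gjb2 and Gjb6 changed by the same factor.

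Connexins work with scaffolds, kinases and sorting proteins, and a list of 25 such partners was examined, 24 of which were tested. This list and those that follow were chosen with earlier results of these data known, so their shares of passing genes are description only. In edgeR's test 4 rose and 1 fell (20.8% passed), where 15.7% of all tested genes rose and 17.0% fell (32.8% passed), and the median log2 fold change was 0.28, against 0.03 for all genes. Dbn1, which encodes the actin-binding drebrin that holds Gja1 channels at the membrane, rose from 15.5 ± 3.04 to 37.1 ± 3.27 RPKM (SD, n = 4 each; log2 fold change 1.42, SE 0.15, adjusted p = 3.95e-04). Mapk3, an ERK kinase that phosphorylates the tail of the Gja1 protein, rose from 49.6 ± 3.30 to 78.8 ± 8.73 RPKM (log2 fold change 0.84, adjusted p = 0.00223). Ctnnb1, encoding beta-catenin of adherens junctions, rose by 0.54 (adjusted p = 0.0152) and Tsg101, a sorting factor that binds connexins, by 0.54 (adjusted p = 0.0160) on the log2 scale. The adjusted p of Ctnnb1 was 0.0525 without replicate 2 of 1 week, and that of Tsg101 0.0504 without replicate 4 of 1 week. With the preparation, which 3 samples of each time share, as block, it was 0.145 for Ctnnb1 and 0.144 for Tsg101. Cav2, a caveolin, fell by 0.61 on the log2 scale (adjusted p = 0.0131), but only 5.04% of its reads mapped to 1 place. On these uniquely mapped reads the log2 fold change of Cav2 was -0.62 (adjusted p = 0.0175 in edgeR's test). Of the Ctnnb1 reads only 42.5% mapped to 1 place. On uniquely mapped reads its log2 fold change was 0.47 (adjusted p = 0.0170 in edgeR's test). Without replicate 3 of 3 weeks, 9 partners rose instead of 4. Tjp1, the scaffold that borders gap junction plaques, had 23.5 ± 4.45 and 28.3 ± 20.7 RPKM (adjusted p = 0.516), and Cdh1, encoding E-cadherin, 193 ± 29.0 and 262 ± 103 RPKM (adjusted p = 0.116).

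ATP that leaves cells through pannexin channels acts on purinergic receptors and is broken down by ectonucleotidases. Of a list of 25 genes around ATP release, 13 were tested, 2 rose and 4 fell (46.2% passed, against 32.8% of all tested genes), with a median log2 fold change of -0.05. Nothing is read from this share, since this list too was chosen with earlier results known. P2rx2, an ATP-gated ion channel, fell from 56.7 ± 23.5 to 13.95 ± 1.66 RPKM (SD, n = 4 each; log2 fold change -1.86, SE 0.29, adjusted p = 0.00183). P2ry1, a receptor for ADP, fell by 1.36 (adjusted p = 0.0127) and Adora2b, a receptor for adenosine, by 0.90 (adjusted p = 0.0187, 0.0531 without replicate 1 of 3 weeks and 0.0578 with the preparation as block) on the log2 scale. Entpd3, an ectonucleotidase that hydrolyses ATP, rose from 0.802 ± 0.0730 to 1.80 ± 0.548 RPKM (log2 fold change 1.32, adjusted p = 0.00305). P2rx4, an ATP-gated channel, rose by 0.45 (adjusted p = 0.0282), but its adjusted p was 0.103 with the preparation as block and lay between 0.0579 and 0.0787 without any one of the 4 samples of 1 week or without replicate 2 of 3 weeks. In these 5 analyses 1 gene of the list rose, and 4 rose without replicate 4 of 3 weeks.

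The last list held 16 transcription factors described at connexin promoters, of which 14 were tested. Here 2 rose and 2 fell (28.6% passed, against 32.8% of all tested genes). The median log2 fold change was -0.33, and 12 of the 14 values were negative, as were 6072 of all 12590 tested genes. Of the 12 negative values only 2 passed, and nothing is read from this count, since the list was chosen with earlier results known. Fosl2 rose by 0.81 (adjusted p = 0.0162) and Jund by 0.63 (adjusted p = 0.0136) on the log2 scale, both of which encode AP-1 proteins. Of the Jund reads only 44.2% mapped to 1 place. On uniquely mapped reads its log2 fold change was 0.63 (adjusted p = 0.00675 in edgeR's test). The other AP-1 genes of the list did not pass, with log2 fold changes of -0.92 for Fosl1 (adjusted p = 0.134), -0.45 for Fos (adjusted p = 0.244), -0.12 for Junb (adjusted p = 0.385) and -0.07 for Jun (adjusted p = 0.842). Tfap2b fell by 0.91 (adjusted p = 0.00805) and Tfap2c by 0.38 (adjusted p = 0.0370), both of which encode AP-2 proteins, while Tfap2a had -0.29 (adjusted p = 0.316). Without replicate 1 of 1 week the adjusted p was 0.0628 for Fosl2 and 0.0527 for Jund. For Tfap2c it was 0.0529 to 0.101 without replicate 1, 2 or 4 of 1 week or replicate 1 or 2 of 3 weeks, and 0.171 with the preparation as block. In these analyses 1 factor fell, and 4 fell without replicate 4 of 3 weeks. Trp63, the master factor of basal KCs, had 26.2 ± 6.34 and 14.6 ± 5.24 RPKM (log2 fold change -0.69, adjusted p = 0.0809).

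**Figure D3:**
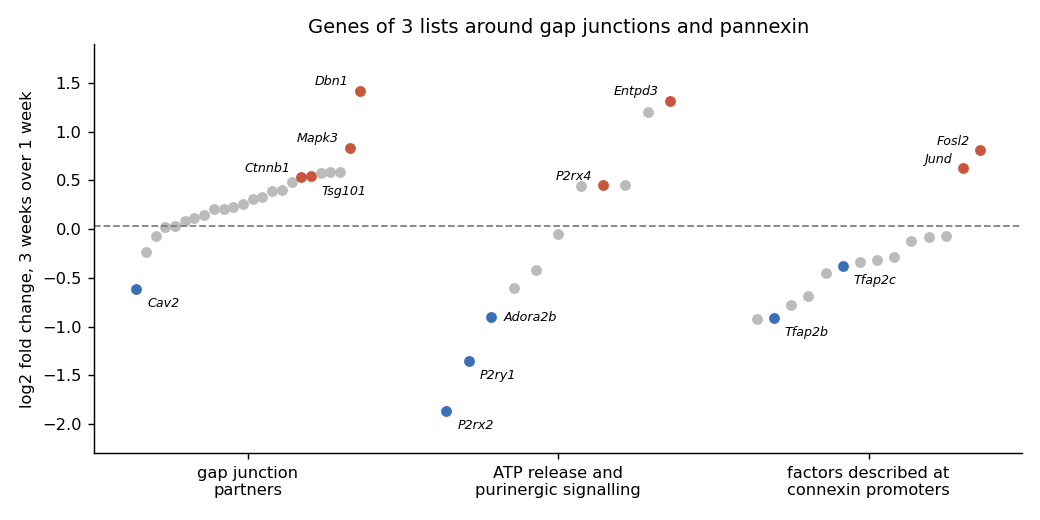
Log2 fold changes (3 weeks over 1 week, vertical axis) of genes of 3 lists that are reported here, ordered within each list, with genes that rose in red, genes that fell in blue and all others in grey. The dashed line is the median of all tested genes (0.03). Dbn1 (1.42) and Entpd3 (1.32) are the highest named points and P2rx2 (-1.86) the lowest.

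To find transcripts that moved like each member, the log2 CPM of 11848 genes was centred over the 8 samples and the root mean square difference from each member was taken. Nearest to Gja1 were Pcdh7 (0.13), Ncapd3 (0.16) and Cenpq (0.17), while the spread of Gja1 itself was 0.91. Pcdh7, for example, went from 5.27 ± 2.02 to 1.49 ± 0.377 RPKM (SD, n = 4 each). For Gjb2, with a spread of 2.35, the nearest were Wnt3 (0.50), Gstp3 (0.61) and Rad54b (0.63). For Gjb6, with a spread of 2.29, they were Kif2c (0.54), Sapcd2 (0.54) and Plk1 (0.56), and Plk1 went from 27.4 ± 13.7 to 2.11 ± 0.824 RPKM. Panx1 was nearest to Fpgs (0.07), Wdr55 (0.07) and Hnrnpf (0.08), Gjb5 to Phtf2 (0.07), Pmm2 (0.09) and Cyp51 (0.10), and Gjc1 to Myl6b (0.12), Kctd10 (0.13) and Pgp (0.13). These are likenesses over 8 samples in 2 groups, so that any gene with a similar difference between the groups comes near.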

How the data were processed

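Poly(A) RNA was sequenced from 4 KC cultures at 1 week and 4 at 3 weeks, and the authors aligned trimmed reads to GRCm38 in the CLC Genomics Workbench. Counts were deposited as whole, unscaled read numbers of each gene, and the RPKM values that the authors deposited are these counts per exon length and mapped reads, with no correction for library composition. They were written with decimal commas. Annotation release and strand use are not given in the sources used here.

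Total exon reads of all 8 samples were fitted with edgeR 4.0.16 in R 4.3.3 (filterByExpr, TMM, glmQLFit and glmQLFTest, no block, threshold 0.05 after Benjamini-Hochberg adjustment). Levels, shares and ratios were computed in Python 3.11.15 from RPKM. Intervals cover counting error only. Depth of 13896807 to 20026084 exon reads leaves genes with few reads imprecise. The members and lists were chosen with earlier results of these data known. Named genes were the 6 members, other family genes, up to 8 called genes with the largest change per list (some others of a list were named after their values were seen), the 2 nearest tested genes on each side of each member and the 3 nearest profiles. Alternatives were DESeq2 1.42.0, upper-quartile scaling, the omission of the filter, uniquely mapped exon reads, limma 3.58.1 on log2(RPKM + 0.1) or log2(RPKM + 1), the replicate number as block, the preparation number in the names of the deposited tables as block, and the omission of each sample. Preparations 46, 49 and 90 occur at both times, and the study compared the same KC batches at both times, so this block uses only their 6 samples. Deviations from the group means correlated at -0.23, 0.20 and 0.25 in these 3 pairs. Promoters are from RefSeq. Some genes of the family and of the lists are counted above but not reported here by name.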

Additional observations from a re-analysis of the deposited data

Results flagged for a closer look

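In replicate 4 of 3 weeks Panx1 had 2.39 RPKM, while the other 3 samples of 3 weeks lay between 3.86 and 4.05 RPKM. The gap to the nearest sample exceeded Dixon's 95% critical value for 4 samples. It was the only such value among 16 groups of 4 samples, and chance gives 5% of groups. The same sample was also the lowest of 3 weeks for Gjb5, Gjb6 (0 reads) and Gjc1, but the highest for Gjb2. Without it the log2 fold change of Panx1 was -0.61.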

How the results depend on the processing

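The direction of all 6 members held in the 16 alternatives. Their log2 fold changes ranged from -4.83 to -4.12 for Gjb2, -1.88 to -1.49 for Gja1, -0.98 to -0.61 for Panx1, -0.59 to -0.27 for Gjb5 and 0.05 to 0.56 for Gjc1. Gjb6 ranged from -5.44 to -4.26 when 1 sample was left out, and the added constant brought it to -3.63 on log2(RPKM + 0.1) and to -1.50 on log2(RPKM + 1). Over all genes, 1981 rose and 2146 fell. The number that rose was 1313 and 1281 with limma on log2(RPKM + 0.1) and log2(RPKM + 1), where 3089 and 3090 fell, 1300 with the preparation as block and 1309 with the replicate number as block. Replicate numbers 1 and 4 stand for the same preparation at both times (46 and 90), while numbers 2 and 3 do not. Deviations of samples with the same replicate number correlated at -0.23, -0.15, -0.15 and 0.25. These correlations cannot decide which samples are paired, since the samples that share preparation 46 gave -0.23. Of the 17 family genes outside the set, only 2 passed the filter and were tested. Of these 2, 0 rose and 0 fell in the comparison as reported, where 32.8% of all tested genes passed. The other family genes outside the set could not be called. Panx2 was fitted when no filter was used. With the preparation block and without some single samples it passed the filter only through its reads at 3 weeks. Its results in these analyses are not counted, since no test of Panx2 is given. Of the partners, 1 fell and 4 rose; 2 fell under both limma fits, 0 fell and 2 rose with the replicate block, and 3 to 9 rose without single samples. Of the purinergic list 2 rose; 4 rose with DESeq2, 1 under both limma fits, without a filter and with either block, and 1 to 4 without single samples. Of the factors 2 fell and 2 rose; 4 fell with DESeq2, 6 fell and 0 rose under both limma fits, 1 fell with the preparation block, 1 rose with the replicate block, and 1 to 4 fell and 0 to 3 rose without single samples. Of the neighbouring genes 7 fell and 2 rose; 3 fell with the preparation block, and 1 rose under both limma fits and with either block. With the replicate block the adjusted p of Cav2 was 0.0635, of P2ry1 0.0507 and of Jund 0.0589, and limma on log2(RPKM + 0.1) gave 0.0752 for Jund and 0.0708 for Fosl2. The cause of these shifts was not tested. Genes with few reads, above all Gjb6 and Panx2 at their lower time, are limited by depth.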

Other observations

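The genes beside the members on the chromosomes were examined as well. Of the 20 nearest tested genes, counted as 2 on each side of each member, 7 fell and 2 rose in edgeR's test (45.0% passed, against 32.8% of all tested genes). Hephl1, a ferroxidase gene that lies 6363 bases from Panx1, fell from 0.867 to 0.0667 RPKM in the mean (log2 fold change -3.56, SE 0.52, adjusted p = 0.00137). Mre11a, which encodes a nuclease of DNA repair on the other side of Panx1, fell by 1.26 (adjusted p = 3.77e-04) and Ankrd49 by 0.61 (adjusted p = 0.00698, and 0.0637 with the preparation as block) on the log2 scale. Vstm5, the fourth gene around Panx1, had -1.03 (adjusted p = 0.0744).

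Beside Gjb2 and Gjb6, Cryl1, which encodes a crystallin with dehydrogenase activity, fell by 0.72 (adjusted p = 0.00894) and Zmym5 rose by 0.61 (adjusted p = 0.0121, but 0.0514 to 0.109 in both limma fits on RPKM and with either block), while Zmym2 had 0.32 (adjusted p = 0.0874) and Ift88 -0.28 (adjusted p = 0.208). No gene in this row came near the log2 fold changes of Gjb2 and Gjb6. Of the nearest tested genes around Gja1, Serinc1, 1113 kilobases away, rose by 0.98 (adjusted p = 0.00176). Msl3l2, 260 kilobases away, fell by 1.02 (adjusted p = 0.0136, and 0.0890 with the preparation as block), but only 1.24% of the Msl3l2 reads mapped to 1 place. Tbc1d32, 149 kilobases away, had -0.20 (adjusted p = 0.438) and Hsf2, 1084 kilobases away, 0.15 (adjusted p = 0.507). Near Gjc1, Eftud2, which encodes a spliceosome GTPase, fell by 0.52 (adjusted p = 0.0163, 0.0520 without replicate 4 of 1 week and 0.0505 with the preparation as block). Fzd2 (0.45, adjusted p = 0.0594), Ccdc43 (-0.24, adjusted p = 0.161) and Ccdc103 (-0.10, adjusted p = 0.864) did not pass. On the far side of Gjb5, Phc2, 1297 kilobases away, fell by 0.38 (adjusted p = 0.0438). The adjusted p of Phc2 lay between 0.0530 and 0.112 without any one of 7 of the samples and was 0.162 with the preparation as block. Zscan20, 1225 kilobases away, had 0.08 (adjusted p = 0.832).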
